A study of Homo sapiens with 6 samples.

Results

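The epithelial-mesenchymal state genes are ZEB1, ZEB2, SNAI2, TWIST1, VIM, CDH2, VCAN, CD44, CDH1 and EPCAM. They were measured by 36 of the 54613 probe sets of the array, which stand for 10 of 19775 genes. All probe sets that the platform annotation assigns to these gene names were taken, and each of the 36 lists 1 gene. Total RNA came from 1 subclone of the human adrenocortical carcinoma line H295R, named H295R/TR SF-1, that makes extra SF-1 (NR5A1), a nuclear receptor of steroid-making tissues, when doxycycline (Dox) is added. The Dox group held 3 arrays of cells kept for 72 h with doxycycline at 1 µg/mL, and the basal group held 3 arrays of the same cells kept for 72 h without it. Both groups therefore carry the inducible construct, and doxycycline given to cells without it was not analysed here. Arrays are numbered within a group by order of deposition, so that basal 2 has the title C_NT_01 and Dox 3 the title C_NT_DOX_04. Basal 3 and Dox 2 have coded titles too, while those of basal 1 and Dox 1 are spelled out in words. The genes and the separate look at Dox 3 and basal 2 were proposed with values of the same 6 arrays in view.

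Epithelial cells hold together through junctions built on E-cadherin, and EPCAM is a surface protein of simple epithelia. In the epithelial-mesenchymal transition, zinc-finger repressors of the ZEB and SNAI families and the TWIST factors bind E-box motifs, lower E-cadherin and favour N-cadherin, vimentin and a loose matrix with versican. CD44, the receptor for hyaluronan, often accompanies the mesenchymal state. The adrenal cortex arises from mesoderm, and its steroid-making cells are known for vimentin and N-cadherin rather than E-cadherin.

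The bases just upstream of transcription starts are shown for ZEB1, VCAN and CD44, the genes that moved together on the arrays below. The stretches are 250 bases long, written 5′ to 3′ on the plus strand, and taken from RefSeq (GRCh38.p14). Capitals mark the E-box searched for, CAGGTG or its reverse complement CACCTG, which was looked for on both strands and does not overlap another motif of the search. ZEB1 has more starts, and only its stretches that held the E-box are shown.
ZEB1, most upstream start, chr10:31318167-31318416: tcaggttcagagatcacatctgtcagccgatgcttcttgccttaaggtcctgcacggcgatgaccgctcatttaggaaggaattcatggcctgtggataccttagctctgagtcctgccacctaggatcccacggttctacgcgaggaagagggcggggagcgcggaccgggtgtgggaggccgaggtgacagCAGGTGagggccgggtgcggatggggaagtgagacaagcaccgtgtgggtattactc
ZEB1, further start, chr10:31318966-31319215: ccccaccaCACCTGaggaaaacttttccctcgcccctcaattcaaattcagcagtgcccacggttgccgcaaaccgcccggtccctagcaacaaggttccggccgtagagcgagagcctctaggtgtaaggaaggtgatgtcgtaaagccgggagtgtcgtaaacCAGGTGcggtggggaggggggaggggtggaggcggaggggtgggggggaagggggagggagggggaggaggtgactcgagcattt
VCAN, chr5:83471494-83471743: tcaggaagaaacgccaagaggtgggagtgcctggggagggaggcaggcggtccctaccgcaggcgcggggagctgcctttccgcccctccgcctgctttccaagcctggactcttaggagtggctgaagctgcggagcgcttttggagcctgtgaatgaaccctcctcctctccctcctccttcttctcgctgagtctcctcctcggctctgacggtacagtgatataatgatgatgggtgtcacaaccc
CD44, chr11:35138921-35139170: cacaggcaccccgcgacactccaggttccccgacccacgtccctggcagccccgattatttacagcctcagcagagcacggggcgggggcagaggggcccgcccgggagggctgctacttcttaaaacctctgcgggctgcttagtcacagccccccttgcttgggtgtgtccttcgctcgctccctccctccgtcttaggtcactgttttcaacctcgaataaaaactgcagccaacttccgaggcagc

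The E-box stood once before the most upstream ZEB1 start, beginning 57 bases before it. It stood in 2 places before the further start shown, beginning 242 and 85 bases before that start. The stretches of the other ZEB1 starts held none, nor did those of VCAN, CD44, ZEB2, VIM and CDH2. In all, 2 of 13 stretches of the 6 genes with an entry (15.4%) held the motif, against 17.5% of 35116 stretches of the same length over all genes. SNAI2, TWIST1, CDH1 and EPCAM had no entry. A match is a string of letters and was not tested for binding.

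The 6 arrays did not sort by label. Dox 1 and basal 1 were nearly identical over all probe sets (SD of their difference 0.134 on the log2 scale), as were Dox 2 and basal 3 (0.149), and 0 probe sets of either pair differed by 2-fold or more. Over the 36 member sets the largest difference within a pair was 0.40 between Dox 1 and basal 1 and 0.39 between Dox 2 and basal 3. Dox 3 and basal 2 stood apart from the 4 others, with a narrower spread of values (interquartile range 3.32 to 3.38, against 3.53 to 3.56), and 622 probe sets separated these 2 from each other by 2-fold or more. NR5A1, the induced gene, read 5.55, 6.21 and 6.41 in Dox 1, 2 and 3, against 5.84, 5.92 and 6.30 in basal 1, 2 and 3, and the labelled groups overlapped (exact permutation p = 1, two-sided, n = 3 each, where 0.1 is the smallest p possible). In Dox 1 NR5A1 lay just below the array median (5.57) and was not shown to be above background there. Of 12 measured adrenocortical markers, 8 lay above the median signal of every array and INHA lay below it on all 6. Of 11 measured stromal, endothelial and blood cell markers, 7 lay below the array median on all 6 arrays, including PDGFRA, LUM, CDH5 and PTPRC. PECAM1, CD3E and HBB lay above it on all 6 arrays and DCN on 4. The mean level of the list was between 4.81 and 4.83 in Dox 3 and basal 2 and between 4.65 and 4.77 in the 4 others.

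Across the members, the pattern was a split and not a shift of the whole set. In their brightest probe sets, VCAN, CD44 and ZEB1 were about 4- to 5-fold lower in Dox 3 and basal 2 than in the 4 other arrays, though the other CD44 sets differed less, while VIM, CDH2 and TWIST1 were not lower there. CDH1 lay below the median signal of all 6 arrays. SNAI2 and EPCAM also differed between the 2 nearly identical pairs, by about 1 log2 unit and in opposite directions. Title style, spelled out or coded, also separates these 2 pairs, so differences between them cannot be told apart from it. Because the split of Dox 3 and basal 2 from the others and the choice of genes both rest on these values, that comparison is given as a description and carries no test. In such bulk samples, fewer cells of a kind and less RNA per cell cannot be told apart.

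**Figure D1:**
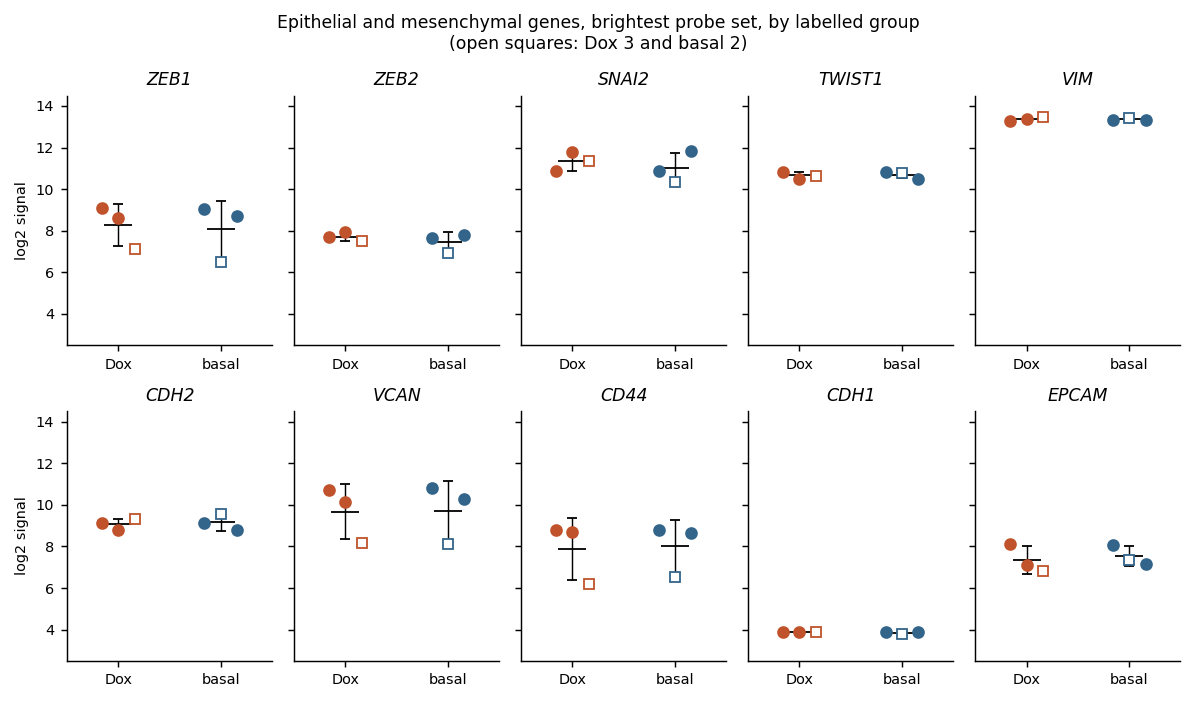
Log2 signal (y axis) of the brightest probe set of each of the 10 genes in the 3 Dox and 3 basal arrays (x axis), with the mean of each labelled group as a line and its SD as a bar; open squares are Dox 3 and basal 2. The squares of ZEB1, VCAN and CD44 lie at least 1.48 log2 units under every circle, while those of VIM and TWIST1 lie among or next to the circles.

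ZEB1 encodes the zinc-finger repressor of E-cadherin. In its brightest probe set (212764_at) it read 9.09, 8.61 and 7.13 in Dox 1, 2 and 3, against 9.03, 6.49 and 8.69 in basal 1, 2 and 3. The low arrays were thus 1 of each label, and the labelled groups overlapped throughout. The mean of Dox 3 and basal 2 differed from that of the 4 others by -2.04, or 4.12-fold lower, where the 4 others had an SD of 0.24. By label the difference was 0.21 ± 0.75 (SE), with a mean of 8.28 ± 1.02 in Dox and 8.07 ± 1.38 in basal (SD, n = 3 each, exact permutation p = 0.8). The 3 other ZEB1 probe sets lay below the median of every array, were not shown to be above background, and differed between Dox 3 with basal 2 and the others by -0.54 to 0.44.

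ZEB2, the close relative of ZEB1, read 7.68, 7.93 and 7.51 in Dox 1, 2 and 3, against 7.67, 6.93 and 7.77 in basal 1, 2 and 3 (203603_s_at). Here basal 2 was the lowest array and Dox 3 lay only 0.16 under the lowest of the 4 others, so the pair averaged -0.54 from them, or -0.84 for basal 2 alone and -0.25 for Dox 3 alone. A second probe set, above the array median on 5 arrays (228333_at), gave -0.45. By label ZEB2 differed by 0.25 ± 0.25 (SE), less than the SD of the basal arrays (0.46, exact permutation p = 0.5, n = 3 each).

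SNAI2 encodes SLUG, a repressor that acts on the same E-boxes. It read 10.88, 11.80 and 11.37 in Dox 1, 2 and 3, against 10.85, 10.35 and 11.82 in basal 1, 2 and 3 (213139_at). Both nearly identical pairs kept together: Dox 2 and basal 3 were about 0.95 above Dox 1 and basal 1. Dox 3 exceeded basal 2 by 1.02, the largest positive gap between those 2 arrays among the 36 probe sets. Dox 3 and basal 2 averaged -0.48 from the 4 others and did not leave their range together, with 0.03 for Dox 3 alone and -0.99 for basal 2 alone. After rescaling of the arrays that mean was -0.23. The labelled difference was 0.34 ± 0.39 (SE, exact permutation p = 0.5, n = 3 each).

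TWIST1, a basic helix-loop-helix factor of mesenchymal cells, moved little. It read 10.85, 10.50 and 10.64 in Dox 1, 2 and 3, against 10.83, 10.76 and 10.50 in basal 1, 2 and 3 (213943_at). No array stood apart, and Dox 3 with basal 2 averaged 0.03 from the 4 others. By label the difference was -0.03 ± 0.14 (SE, exact permutation p = 1, n = 3 each).

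Among the genes of the mesenchymal phenotype, VIM encodes vimentin, the intermediate filament of mesenchymal cells. Its bright probe set (201426_s_at) read 13.26, 13.36 and 13.46 in Dox 1, 2 and 3, against 13.31, 13.41 and 13.34 in basal 1, 2 and 3. All arrays were alike, and Dox 3 with basal 2 averaged 0.12 above the others, 0.04 beyond their highest value at the nearest. The dim VIM probe set (1555938_x_at) read 4.97 in basal 2 and 5.72 to 6.04 in the other 5 arrays. The labelled difference of the bright set was 0.01 ± 0.08 (SE, exact permutation p = 0.9, n = 3 each).

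CDH2 encodes N-cadherin, the cell adhesion protein that takes the place of E-cadherin in mesenchymal cells. It read 9.14, 8.78 and 9.30 in Dox 1, 2 and 3, against 9.12, 9.57 and 8.79 in basal 1, 2 and 3 (203440_at). Dox 3 and basal 2 were the highest arrays, by a mean of 0.48, though the gap to the next array was 0.16. Its other probe set (203441_s_at) gave 0.06, with values that overlapped. By label the brightest set differed by -0.08 ± 0.23 (SE, exact permutation p = 0.9, n = 3 each).

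VCAN encodes versican, a large chondroitin sulfate proteoglycan of the loose matrix. In its brightest probe set (221731_x_at) it read 10.72, 10.14 and 8.17 in Dox 1, 2 and 3, against 10.79, 8.10 and 10.28 in basal 1, 2 and 3. Dox 3 and basal 2 were alike and far under the rest, with a mean difference of -2.35, or 5.09-fold lower, where the 4 others had an SD of 0.32. All 5 VCAN probe sets showed it: the mean differences ran from -2.35 to -1.95, and the 2 arrays lay under the lowest of the 4 others by 1.32 to 1.97. The labelled difference was -0.05 ± 0.86 (SE, exact permutation p = 0.8, n = 3 each).

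VCAN also differed between the nearly identical pairs, in the same direction in every probe set. In 204620_s_at it read 10.15, 9.57 and 7.69 in Dox 1, 2 and 3, against 10.32, 7.68 and 9.72 in basal 1, 2 and 3. Dox 1 and basal 1 were thus the highest arrays, followed by Dox 2 and basal 3, then by Dox 3 and basal 2. In 215646_s_at the 4 other arrays ranged from 7.17 to 8.10, with 5.43 in Dox 3, below the array median, and 5.86 in basal 2.

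CD44 binds hyaluronan at the cell surface and is made in many splice forms. The brightest of its 13 probe sets (212063_at) read 8.79, 8.68 and 6.18 in Dox 1, 2 and 3, against 8.80, 6.54 and 8.66 in basal 1, 2 and 3. Dox 3 and basal 2 differed from the 4 others by a mean of -2.37, or 5.18-fold lower, while those 4 arrays were close to each other (SD 0.07). By label the difference was -0.12 ± 0.85 (SE, exact permutation p = 0.8, n = 3 each).

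The 12 other CD44 probe sets differed less. In 5 of them, with mean differences from -1.46 to -0.58 (2.75- to 1.49-fold lower), Dox 3 and basal 2 lay under every other array. These 5 lay above the array median on at least 4 arrays, and 4 of them did so only on the 4 other arrays, so that their level and their direction are not separate facts. In 204490_s_at, for example, values were 4.83 in Dox 3 and 5.31 in basal 2, against 6.33 to 6.76 in the 4 others. The remaining 7 CD44 sets lay below the median of every array and differed by -0.51 to 0.43, in both directions. Sets whose names end in _x_at (209835_x_at and 212014_x_at among the bright ones) can also bind transcripts of other genes by design of the array. The brightest VCAN set (221731_x_at) and the dim VIM set (1555938_x_at) are of this kind too, as are sets of some list genes below.

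**Figure D2:**
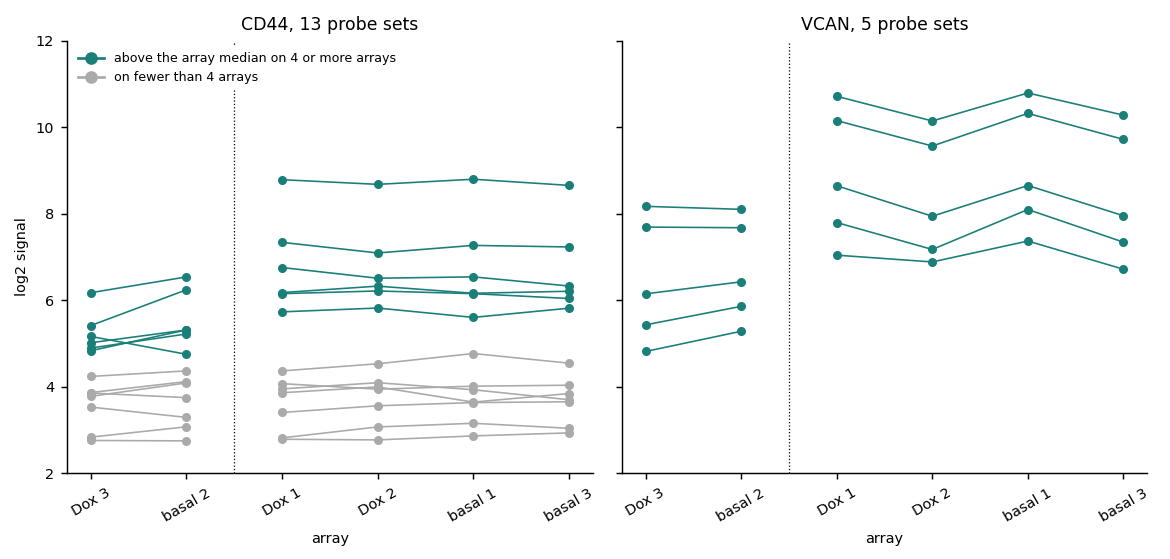
Log2 signal (y axis) of all 13 CD44 probe sets and all 5 VCAN probe sets in each array (x axis), Dox 3 and basal 2 left of the dotted line and the 4 other arrays right of it; each line is a probe set, grey where it exceeded the array median on fewer than 4 arrays. The brightest CD44 line reads 6.18 and 6.54 on the left and 8.66 to 8.80 on the right, and the 7 grey lines lie at 2.75 to 4.77; 4 CD44 sets and 1 VCAN set are coloured only through the 4 arrays on the right.

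Of the epithelial members, CDH1 encodes E-cadherin, the target of the ZEB, SNAI and TWIST repressors. Both CDH1 probe sets lay below the median of every array. The brighter (201130_s_at) read 3.91, 3.87 and 3.90 in Dox 1, 2 and 3, against 3.90, 3.78 and 3.86 in basal 1, 2 and 3. No array stood out upward, and at this level E-cadherin RNA was not shown to be above background, with ZEB1 high or low. The dimmer set (201131_s_at) read 3.01 in Dox 3 and 3.15 in basal 2, against 3.38 to 3.47 in the 4 others. The labelled difference of the brighter set was 0.05 ± 0.08 (SE, exact permutation p = 0.3, n = 3 each).

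EPCAM, the epithelial adhesion molecule, was measured by 1 probe set above the median of all arrays (201839_s_at). It read 8.12, 7.09 and 6.81 in Dox 1, 2 and 3, against 8.07, 7.36 and 7.16 in basal 1, 2 and 3. Dox 1 and basal 1 were about 1 log2 unit above Dox 2 and basal 3, which is the opposite of SNAI2. Dox 3 was 0.55 under basal 2, and the 2 together averaged -0.52 from the 4 others, with Dox 3 under their range and basal 2 within it. By label the difference was -0.19 ± 0.38 (SE, exact permutation p = 0.6, n = 3 each).

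Counted over all 36 member probe sets, Dox 3 and basal 2 both lay under the range of the 4 others in 18, above it in 3 and within reach of it in 15. Over all 54613 probe sets they lay under it in 22.0% and above it in 27.2%. With a gap of at least 1 log2 unit, 8 member sets lay under the range (5 of VCAN, 2 of CD44 and 1 of ZEB1) and 0 lay above it, where all probe sets gave 0.300% under and 0.295% above. These values chose the members, so the counts only describe them. The member just inside that gap was CD44 204490_s_at at 1.01, and the member just outside was CD44 209835_x_at at 0.998. The median difference was -0.46 over the 36 sets and 0.04 over all probe sets. Of the 36, 21 lay above the array median on at least 4 arrays, and 15 lay below it on all 6.

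**Figure D3:**
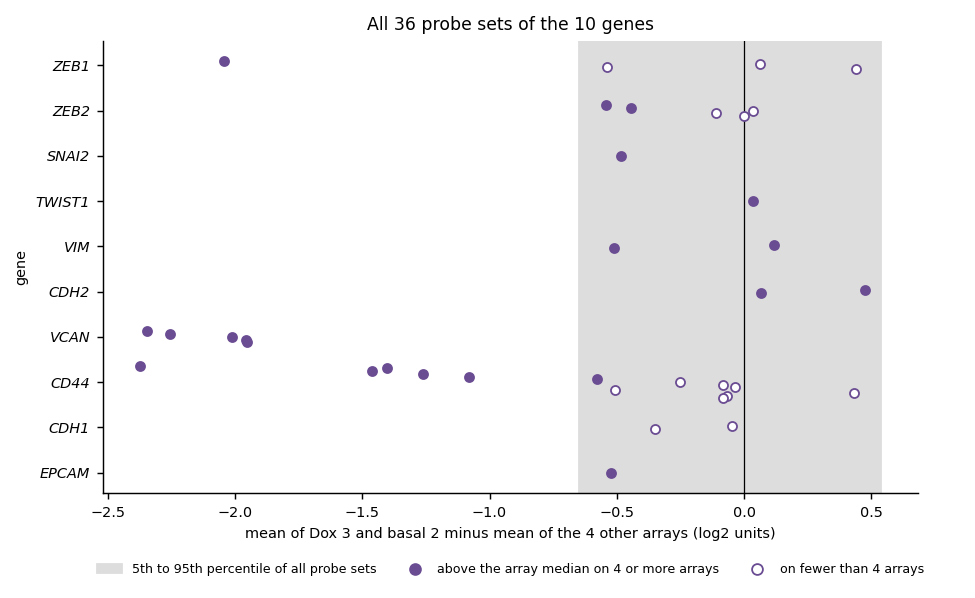
Mean of Dox 3 and basal 2 minus the mean of the 4 other arrays (x axis, log2 units) for each of the 36 probe sets, by gene (y axis); filled points exceeded the array median on at least 4 arrays, and the grey band spans the 5th to 95th percentile of all probe sets (-0.65 to 0.54). All 5 VCAN sets, 5 CD44 sets and 1 ZEB1 set lie left of the band, and every other set lies within it.

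The comparison of the Dox arrays with the basal arrays asks which genes change when SF-1 is in excess. With limma over all 54613 probe sets, 0 of the 36 member sets were higher and 0 lower at an adjusted p under 0.05, and 0 of all probe sets were called (0%, lowest adjusted p = 1). At an unadjusted p under 0.05 the counts were 0 of 36 and 373 of 54613, and at 2-fold with an unadjusted p under 0.05 they were 0 and 0. The study used 2-fold and a p under 0.05 without stating whether p was adjusted. It reported genes changed in both directions by SF-1 overexpression, which the labelled arrays did not give here. The study also followed SF-1 protein by immunoblot in basal cells and after doxycycline, whereas these arrays read RNA only. Because 2 nearly identical pairs crossed the labels, these differences rested mainly on Dox 3 minus basal 2, 1 array each. Member differences ran from -0.30 to 0.37, beside a median of -0.0015 over all probe sets. The labelled groups did not overlap in 2 member sets, 1 of ZEB2 (233033_at) and 1 of CD44 (229221_at), both higher in Dox and both below the array median on all 6 arrays. Over all probe sets 3.81% did not overlap, made up of 1.74% with Dox higher and 2.07% with Dox lower.

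The wide errors of ZEB1, VCAN and CD44 came with Dox 3 and basal 2, 1 array of each label. Without these 2 arrays the labelled differences were -0.01 ± 0.20 in ZEB1, -0.11 ± 0.25 in VCAN and 0.01 ± 0.10 in CD44 (SE, n = 2 each), and 0% of all probe sets were called (821 had an unadjusted p under 0.05). Within these 2 arrays, Dox 3 minus basal 2 was 0.64 in ZEB1, 0.07 in VCAN and -0.36 in CD44, with 1 array each and no replicate check. With membership of that pair as a block over all 6 arrays, the differences were 0.21 ± 0.19, -0.05 ± 0.19 and -0.12 ± 0.11, and again 0% were called (1227 probe sets had an unadjusted p under 0.05).

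For SNAI2 and EPCAM the labelled difference rested on which of the nearly identical arrays were kept. With Dox 1 and basal 3 left out and array set as a block (Dox 2 and Dox 3 against basal 1 and basal 2), SNAI2 rose by 0.99 ± 0.09 (SE, limma adjusted p = 1.44e-05, n = 2 each) and EPCAM fell by 0.76 ± 0.14 (adjusted p = 0.00558). The single comparisons behind these were 0.95 and 1.02 for SNAI2, and -0.98 and -0.55 for EPCAM. In that fit 4 of 36 member sets were called, 1 higher and 3 lower, where 4.15% of all probe sets were (2.07% higher and 2.09% lower). The 2 further calls were VCAN 215646_s_at, at -0.68 ± 0.15 (adjusted p = 0.0187), and the dim ZEB1 set 239952_at, at -0.50 ± 0.13 (adjusted p = 0.0486). ZEB2 was at 0.43 ± 0.14 (adjusted p = 0.121) and CDH2 at -0.30 ± 0.11 (adjusted p = 0.207), larger than over all 6 arrays but not called. At 2-fold with an unadjusted p under 0.05, that fit gave 0 member sets and 0.879% of all probe sets. VCAN in its brightest set was at -0.29 ± 0.15 (adjusted p = 0.428) and ZEB1 at 0.11 ± 0.19 (adjusted p = 0.895).

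With Dox 2 and basal 1 left out instead, so that the other array of each pair was kept under its own label, SNAI2 was at 0.04 ± 0.46, EPCAM at 0.21 ± 0.38 and ZEB1 at 0.52 ± 0.18 (adjusted p = 1), and 0% of all probe sets were called (518 had an unadjusted p under 0.05). Whether labels were exchanged between arrays of the pairs cannot be told from the labels, and an exchange would change every labelled difference given here, the 0 calls included. NR5A1, at 5.55 in Dox 1 and 6.30 in basal 3, was lower in the array labelled Dox, and its part was not tested. Both fits left 1 residual degree of freedom. The arrays left out were chosen from these data, so the p-values of either fit are no independent evidence.

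**Figure D4:**
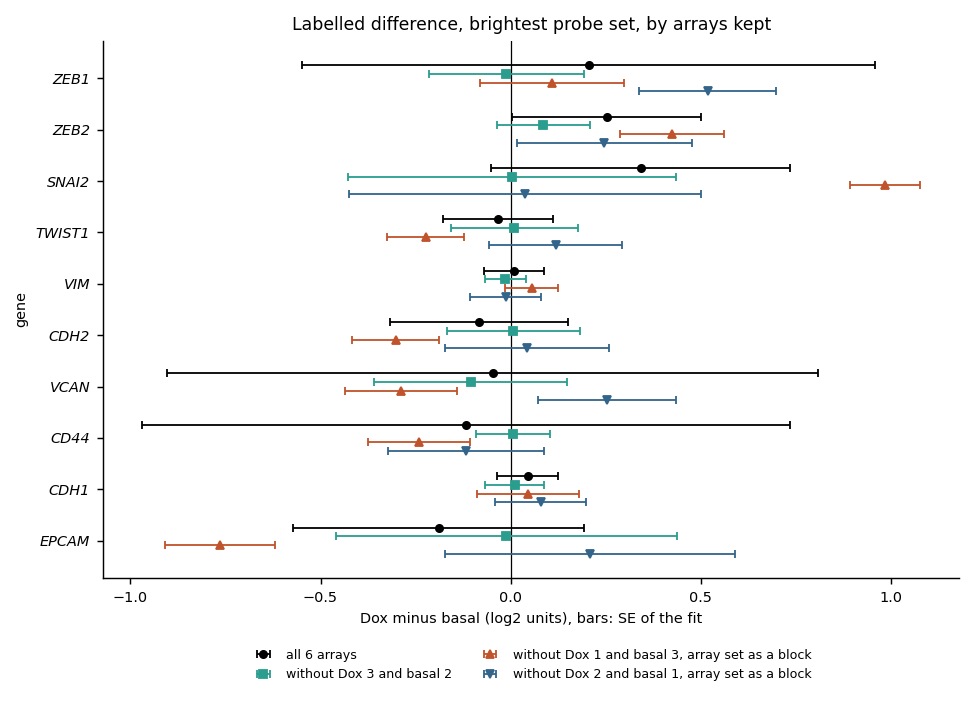
Dox minus basal difference of the brightest probe set (x axis, log2 units, bars: SE of the limma fit) for each gene (y axis), with all 6 arrays and with 3 choices of arrays left out. The points of ZEB1, VCAN and CD44 stay near 0 with wide bars over all 6 arrays, and those of SNAI2 (0.99) and EPCAM (-0.76) are called without Dox 1 and basal 3, while ZEB1 is at 0.52, not called, without Dox 2 and basal 1.

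Lists of related genes, each gene by its brightest probe set, gave 0 calls in either direction in the labelled comparison of all 6 arrays. Without Dox 1 and basal 3, with array set as a block, 4.15% of all probe sets were called. The lists take the brightest probe set of each gene, and no such share over all genes was counted for this fit. The list counts therefore have no like background and are not read against that share. In that fit 2 of 31 mesenchymal genes were higher and 3 lower, and 1 of 15 TGF-beta genes higher and 4 lower. Of 19 hyaluronan partners 4 were lower, and of 12 adrenocortical markers 1 was higher and 2 lower. Each epithelial list held 1 lower gene, and the rest held 0 calls. The list medians by label ran from -0.053 to -0.0036. Beside all genes, where the median of Dox 3 and basal 2 minus the 4 others was 0.01, the lists differed in how their members split.

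Some matrix genes of the mesenchymal list were, like VCAN, lower in Dox 3 and basal 2. Dox 3 and basal 2 lay under the 4 others in 9 of 31 measured genes and above them in 2, where 26.6% and 25.4% of all genes did, with a list median of -0.08. By a gap of at least 1 log2 unit, 0.349% of all genes lay under the range and 0.233% above it. The fibrillar collagen COL3A1, past that gap, read 5.47 in Dox 3 and 5.98 in basal 2, against 7.08 to 8.75 in the 4 others, a mean difference of -2.19. COL5A1 differed by -1.11, the membrane-bound metalloproteinase MMP14 by -0.91 and the collagen receptor DDR2 by -0.68. COL5A1 was below the array median in both Dox 3 and basal 2, and COL3A1 in Dox 3, where neither was shown to be above background. Among 19 measured partners of hyaluronan, CD44 and versican, 4 were under the range and 5 above it. The hyaluronan synthase HAS2 differed by -1.04, reading 5.12 in Dox 3 and 5.10 in basal 2, below the array median, against 5.83 to 6.52 in the others. RDX, which encodes radixin and ties membrane proteins such as CD44 to actin, differed by -0.87, the versican-cleaving protease ADAMTS9 by -0.76 with values that overlapped, and ADAMTS1, also below the array median in both arrays, by -0.51.

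Epithelial genes went in both directions. Of 20 measured junction and keratin genes, 5 lay under the range and 8 above it in Dox 3 and basal 2, with a median of -0.01, where 26.6% of all genes lay under and 25.4% above. The desmosomal genes DSG2 and DSP were lower, DSG2 at 5.87 in Dox 3 and 5.58 in basal 2 against 7.18 to 7.56 in the 4 others (-1.66), and DSP by -0.93. The desmosomal plakophilin PKP2 averaged -1.02 but overlapped the others. DSG2 in basal 2 and PKP2 in Dox 3 were below the array median. The keratin KRT18 was higher by 0.54. Of 19 measured regulators, polarity and surface genes of epithelia, 0 lay under the range and 3 above it, with a median of 0.04, and the named members OVOL1, PATJ, MUC1 and AP1M2 differed by 0.43, -0.33, -0.32 and 0.31.

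The remaining transcription factors of the transition moved little. Of 14 measured, 2 lay under the range and 2 above it, where 26.6% of all genes lay under and 25.4% above. Their median was 0.03, and 8 lay below the median of every array. SOX4 differed by -0.62 and PRRX2 by 0.27, while SOX9 (-0.34) and SNAI3 (0.33) lay below the median of every array. The ligands of the TGF-beta pathway induce the transition in many epithelia. In this pathway 7 of 15 genes lay under the range and 1 above it, beside the same shares of all genes, with a median of -0.25. The ligand TGFB1 was the 1 above, at 7.62 in Dox 3 and 7.56 in basal 2 against 6.38 to 6.83 in the 4 others (0.95). The ligand TGFB2 averaged -1.02, with Dox 3 under the range of the others and basal 2 within it, and the receptors TGFBR3 and TGFBR1 differed by -0.67 and -0.61.

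Some adrenocortical markers were higher in Dox 3 and basal 2, and others were lower. CYP17A1, the 17-alpha-hydroxylase, read 8.99 in Dox 3 and 9.56 in basal 2, against 7.83 to 8.13 in the 4 others, and CYP11A1, the side-chain cleavage enzyme, differed by 1.10. SCARB1, the receptor for high-density lipoprotein, differed by 0.41. HSD3B2 averaged 1.14 with values that overlapped, reading 7.89 in basal 2 but 6.07 in Dox 3, within the range of the 4 others. MRAP (-0.37), STAR (-0.29), SULT2A1 (-0.16), SOAT1 (-0.15) and FDX1 (-0.15) averaged lower, and NR5A1 (0.19), MC2R (0.14) and INHA (0.12) higher. Of the 12 markers, 4 lay above the range and 1 under it, with a median of 0.13. Over all genes, 25.4% lay above the range and 26.6% under it. Reference genes were not still: ACTB differed by 0.53, YWHAZ by -0.33, PGK1 by 0.26 and GAPDH by 0.23. Markers of stromal, endothelial and blood cells differed by at most 0.45 (DCN), with PDGFRA and CD3E at 0.33 each and LYZ at -0.32, and their part in the members' values was not tested.

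**Figure D5:**
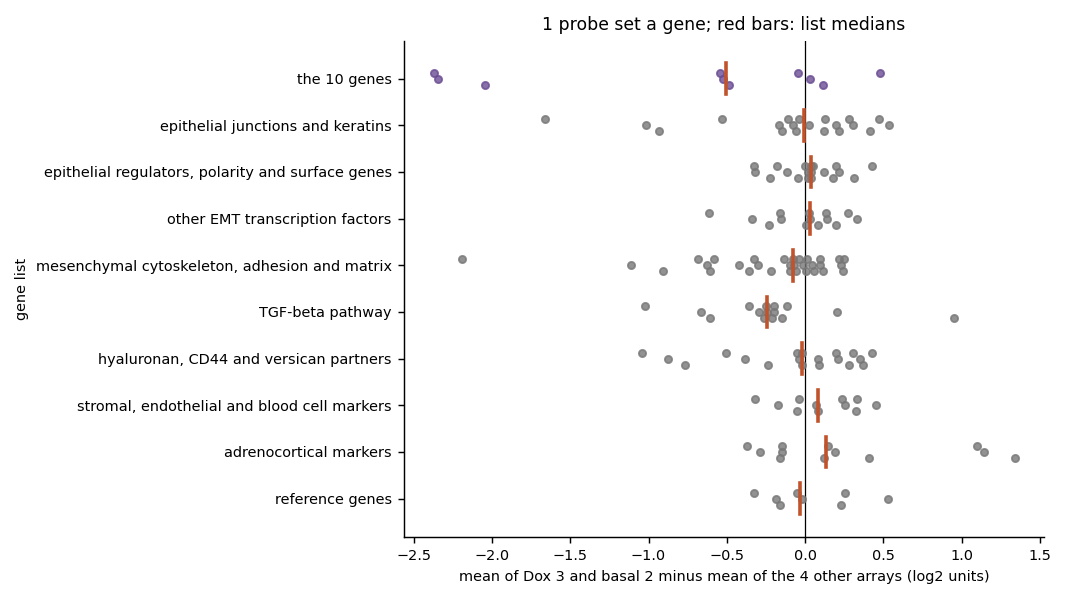
Mean of Dox 3 and basal 2 minus the mean of the 4 other arrays (x axis, log2 units), 1 point a gene, for the 10 genes and for each related list (y axis), with list medians as red bars. The medians of the lists lie between -0.25 and 0.13, and that of the 10 genes, which were chosen with these values known, lies at -0.50.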

How the data were processed

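RNA of 6 cultures was hybridised to Affymetrix HG-U133 Plus 2.0 arrays. The authors deposited log2 signals, 1 per probe set and array. GCRMA, a summary that corrects background by probe sequence, is given in the processing notes of the submitters without a version, and the study names the console software of the maker. Whether all arrays were normalized in 1 run was not stated. Array medians lay between 5.56 and 5.60, and no further scaling was applied. The number of arrays limits the precision, and detection calls were not used here, so a value below the array median is described as not shown to be above background. Gene names came from the platform annotation, in which 41091 probe sets list 1 gene, 1801 several and 11721 none.

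Labelled groups were compared with limma 3.58.1 (moderated by eBayes, trend over mean level) in R 4.3.3 over all 54613 probe sets, two-sided, with Benjamini-Hochberg adjustment and a threshold of 0.05, and single genes with exact permutation tests over the 6 arrays. The limma script was tested on simulated data with independent arrays and no nearly identical pairs, so that test does not bear on the 0 calls. The study calls the arrays biological replicates, and the labels do not pair them. The members, the lists and the tests were chosen with earlier results of these data known. The text names NR5A1, all members and, from each list, up to 4 genes with the largest absolute difference of Dox 3 and basal 2 from the 4 others. List genes whose probe sets list several genes have no value. INHA, MRAP, STAR, SULT2A1, SOAT1, FDX1, MC2R, PECAM1, HBB, LUM, CDH5 and PTPRC were named after their values were seen, to describe the markers of cell types. Alternatives covered normalization, filters, blocks and arrays left out. Figures were drawn with matplotlib 3.10.9 in Python 3.11.15.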

Additional observations from a re-analysis of the deposited data

How the results depend on the processing

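With 3 arrays a label and 2 nearly identical pairs across labels, each labelled difference rested mainly on Dox 3 minus basal 2, 1 array each. SNAI2, for example, was at 0.34 by label and at 1.02 in Dox 3 minus basal 2. The 0 calls and the p-values with n = 3 each cannot tell no effect of doxycycline from this likeness. Signals below the array median were not shown to be above background. No paired analysis was possible because the labels give no shared replicate numbers, the numbers here being the order of deposition. Quantile normalization, a filter on low values, 1 probe set a gene and no variance trend left 0 probe sets called. Title style (coded or spelled out) as a block and array set as a block also left 0. At 2-fold with an unadjusted p under 0.05, the count was 41 without Dox 1 and 48 without basal 3, 480 without both with array set as a block, and 0 over all 6 arrays.

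Without Dox 3 and basal 2, labelled differences changed sign to -0.011 in ZEB1, 0.0090 in TWIST1, -0.014 in VIM, 0.0072 in CDH2 and 0.0065 in CD44. VIM also changed sign on arrays rescaled to 1 median and spread (-0.017). Without Dox 1 and basal 3, with array set as a block, 2269 probe sets (4.15%) and 4 of 36 member sets were called. SNAI2 was at 0.99 and EPCAM at -0.76, and the arrays left out were chosen from these data. The setting without Dox 2 and basal 1 was also chosen after seeing the data. There TWIST1 was at 0.12, VIM at -0.013, CDH2 at 0.043, VCAN at 0.25 and EPCAM at 0.21, each with its sign changed. The cause was not tested.

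Leaving out 1 array at a time, labelled differences ranged from -0.58 (without basal 2) to 0.78 (without Dox 3) in ZEB1, from -0.86 to 0.71 in VCAN and from -0.85 to 0.74 in CD44 for the same arrays. They ranged from -0.012 to 0.41 in ZEB2, 0.01 to 0.75 in SNAI2, -0.13 to 0.050 in TWIST1, -0.041 to 0.061 in VIM, -0.27 to 0.12 in CDH2, 0.01 to 0.07 in CDH1 and -0.58 to 0.083 in EPCAM, and 0 probe sets were called each time.

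For the difference from the 4 other arrays, Dox 3 alone and basal 2 alone gave -1.72 and -2.36 in ZEB1, -0.25 and -0.84 in ZEB2, -2.56 and -2.19 in CD44, and 0.011 and -0.10 in CDH1. CDH1 was at -0.15 after quantile normalization and -0.16 after rescaling, which also gave 0.28 in TWIST1 and 0.50 in VIM. Leaving out each of the 4 others kept it between -2.12 and -1.96 in ZEB1, -2.46 and -2.24 in VCAN, and -2.40 and -2.35 in CD44, while TWIST1 ranged from -0.02 to 0.09.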
